A study of Mus musculus with 115 samples.

Results

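The comparison described here is between livers of gonadectomised mice that had once carried testes and livers of gonadectomised mice that had once carried ovaries, when all of them received the same testosterone capsule. It asks which differences between the gonad types remain under a shared androgen. Members were taken from the labels: the 10 liver arrays labelled XXSry T or XY-Sry T form the testis arm, and the 10 labelled XX T or XY- T form the ovary arm. These are 20 of the 60 liver arrays and of the 115 arrays in the whole series, which also covers adipose tissue.

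All mice were of a C57BL/6J background and belonged to a cross in which the Y chromosome has lost Sry, the gene that starts testis development (such a Y is written Y-), while Sry sits on an autosome as a transgene. The gonad type is therefore inherited apart from the sex chromosomes. XX and XY- mice develop ovaries, and XXSry and XY-Sry mice develop testes. Gonads were taken out at 75 days of age, a Silastic capsule was put in at once, and tissue was collected 3 weeks later. The capsule held testosterone (T, 5 mM) in the arms compared. The blank (B) and estradiol (E, 50 µg) capsules of the other liver arrays, 20 of each, serve here as comparisons. Each genotype and treatment has 5 arrays, and nothing in the labels says more of the animals behind them, so a p-value measures the spread between these arrays. As a model, the transgene stays in every mouse of the testis arm and in none of the ovary arm, so the gonad the animal once had and the presence of the Sry transgene cannot be told apart. An intact animal of either type is not part of the set.

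The mouse liver is one of the most sexually dimorphic organs outside the reproductive tract. Much of its dimorphism follows the sex-specific rhythm of pituitary growth hormone, which acts on hepatocytes through the transcription factor STAT5b, and testosterone acts on the liver through that rhythm and through the androgen receptor. Cytochrome P450 and sulfotransferase genes are among the best known sex-biased genes. The liver also holds resident macrophages, dendritic cells and lymphocytes. The antigen-presenting cells among them carry major histocompatibility complex (MHC) class II molecules and respond to interferon gamma.

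Signals are given as normalised log2 values. Differences are always testis arm minus ovary arm on that scale, so that a value of 1 is a doubling, and each stands with its standard error (SE). A probe was called when limma's Benjamini-Hochberg adjusted p over the 11317 tested probes was under 0.05. The raw median signal ran from 125 to 154 in the testis arm and from 127 to 151 in the ovary arm, and 31.8% to 39.0% and 32.5% to 38.6% of the probes on the array were detected. The 9 probes of hepatocyte markers (Alb, Apoa1, Trf and others) were detected on all 20 arrays, with a median difference of -0.03 (0.04 with arrays centred on their medians) and 0 called.

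An array had to be doubted before any result was read. Xist, the X-inactivation transcript of cells with more than a single X, was at 6.30 to 7.06 in the 10 arrays labelled XX or XXSry and at 4.43 to 5.30 in 9 of the arrays labelled XY- or XY-Sry. The array labelled XY-Sry T replicate 5 was at 6.57. Eif2s3y, a Y-linked translation factor gene, was at 4.35 to 4.77 in the XX classes, at 6.70 to 8.07 in the 9 XY arrays, and at 4.53 in that array. Ddx3y, another Y-linked gene, was at 6.08 to 6.91 and 9.03 to 10.04 in the same classes and at 7.43 in that array, between them. The sex chromosome label of XY-Sry T replicate 5 is thus doubtful, and the testosterone counts and called genes are given with and without it. It also enters the shared estimate of spread, so that without it the counts with blank capsules and under estradiol were 204 and 271 in place of 201 and 279.

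Under testosterone, 24 probes of 21 genes differed between the arms, which is 0.212% of the probes tested. Of these, 12 probes of 11 genes were higher in the testis arm (0.106%) and 12 probes of 10 genes were lower (0.106%). An unadjusted p under 0.05 was found for 503 probes, fewer than that threshold passes by chance on average over 11317 probes. Without XY-Sry T replicate 5 the count of called probes was 18, with 11 higher and 7 lower, and 17 of the 24 were among them. The genes that were higher were led by Scara5, Nat8 and Gm4956, and those that were lower by the sialyltransferase gene St3gal6, interferon-gamma-induced genes and MHC class II genes. Of the 24 differences, 7 were 2-fold or more. Called or not, 5810 of the 11317 tested probes were higher in the testis arm and 5507 were lower. Over all tested probes the arms of 10 did not overlap for 3 that were higher in the testis arm (0.0265%) and 1 that was lower (0.00884%), and these 4 were among the calls. The sign was the same in XX and XY mice for 24 of 24, 1 called probe lay on the X chromosome (Gnl3l) and 0 on the Y. The split between higher and lower depended on scaling: when arrays were centred on their medians instead of quantile normalised, 9 probes were called, 9 higher and 0 lower, and without background correction 14 were called, 9 higher and 5 lower.

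**Figure D1:**
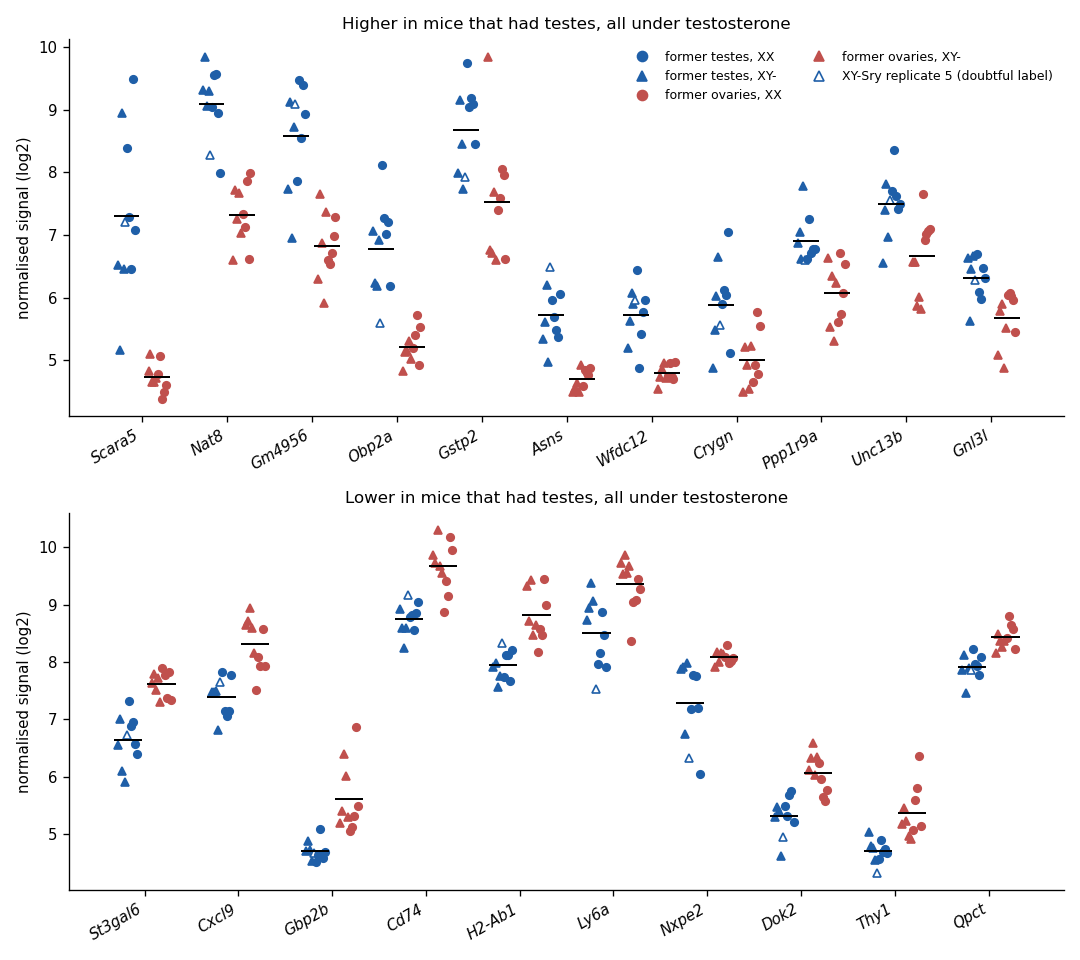
Normalised log2 signal of the called genes on each of the 20 testosterone arrays (circles XX, triangles XY-, black bar the mean of 10, open triangle the array with the doubtful label). In Scara5 the testis arm lies between 5.17 and 9.50 and the ovary arm between 4.38 and 5.10, and in most other genes the arms touch or overlap.

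Scara5, a class A scavenger receptor that binds ferritin, showed the largest difference. Its values on the XXSry arrays were 8.38, 7.29, 6.46, 9.50 and 7.08, and on the XY-Sry arrays 6.52, 5.17, 8.95, 6.46 and 7.20, the last being the array with the doubtful label. The ovary arm ran from 4.38 through a median of 4.69 to 5.10. The arms did not overlap, and the spread was wide only in the testis arm. The probe was detected on 9 of 10 testis arrays and on 0 of 10 ovary arrays, where it was not well above background. The fitted difference was 2.57 ± 0.29 (SE, adjusted p = 2.9e-08), and set against the lowest signal that counts as detected it was at least 3.40-fold. Without the doubtful array it was 2.52 (adjusted p = 1.9e-07). For such bounds, the higher of that lowest detected signal and the probe's own signal was taken on each array of the undetected arm.

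Nat8 (listed on the array as Cml4), an N-acetyltransferase that completes mercapturic acid synthesis, was the largest of the differences that were also present without hormone. It ran from 7.99 through a median of 9.18 to 9.85 in the testis arm and from 6.60 through 7.30 to 7.98 in the ovary arm. The arms parted by a narrow margin, and all 20 arrays detected the probe. The difference was 1.77 ± 0.25 (adjusted p = 2.3e-05), and 1.88 without the doubtful array.

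Gm4956 (EG241041 on the array), which RefSeq lists as a transcribed pseudogene, ran from 6.95 through 8.83 to 9.48 in the testis arm and from 5.91 through 6.79 to 7.65 in the ovary arm. The arms overlapped in their tails. The difference was 1.76 ± 0.27 (adjusted p = 5.2e-05). Obp2a (BC027556 on the array, also known as lipocalin 13), a small secreted carrier protein of the lipocalin family, was 1.56 ± 0.35 higher (adjusted p = 0.028). Its testis arm ran from 5.59 through 6.97 to 8.12 and its ovary arm from 4.83 through 5.17 to 5.72, with the probe detected on 10 and 2 arrays. The lowest testis value of Obp2a was that of the array with the doubtful label.

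Asns encodes asparagine synthetase, which makes asparagine from aspartate and glutamine. Its probe ran from 4.97 through 5.65 to 6.49 in the testis arm and from 4.49 through 4.70 to 4.93 in the ovary arm, without overlap, and was detected on 8 and 0 arrays. The difference was 1.02 ± 0.15 (adjusted p = 5.2e-05), at least 1.13-fold by the bound described for Scara5. Another Asns probe, detected on 9 and 1 arrays, differed by 1.67 ± 0.30 (adjusted p = 0.0012). Asns is a textbook target of the amino acid response, in which activating transcription factors bind a short element near its start. A list of such targets, chosen after the Asns values were seen and so no support for them, held 29 tested probes: 2 were called, both of Asns, and the median was -0.01 beside 0.004 over all tested probes. Trib3, another member, stood at -0.61 ± 0.22 (adjusted p = 0.65). The bases just before the start of Asns are shown because they hold the element's letters TGATGNAA (capitals), ending 15 bases before the start. From RefSeq, build GRCm38.p6, minus strand, chr6:7693210-7693359:
Asns: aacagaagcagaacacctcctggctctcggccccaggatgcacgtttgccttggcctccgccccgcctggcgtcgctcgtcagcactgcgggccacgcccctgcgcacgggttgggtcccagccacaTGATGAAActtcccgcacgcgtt
Searched on both strands, these letters occur within 250 bases before the start in 3.45% of the 32851 promoters of the RefSeq table, so that a match by itself is common.

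The other genes that were higher differed by less. Gstp2, a glutathione S-transferase of the pi class, ran from 7.73 through 8.75 to 9.74 in the testis arm and from 6.60 through 7.49 to 9.85 in the ovary arm (1.15 ± 0.26, adjusted p = 0.032). The highest value of all came from an ovary array, XY- T replicate 1, and without it the difference was 1.44. Probes of Gstp2 and its near-identical neighbour Gstp1 may share signal, which was not tested. Wfdc12, of a family of small protease inhibitors, differed by 0.93 ± 0.20 and was detected on 7 and 0 arrays, at least 1.14-fold. Crygn, a crystallin gene, differed by 0.87 ± 0.19, and its other probe by 0.71 ± 0.18 (adjusted p = 0.085).

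Ppp1r9a, which encodes the actin-binding protein neurabin, ran from 6.61 through 6.77 to 7.78 against 5.30 through 6.16 to 6.72, a difference of 0.83 ± 0.17 (adjusted p = 0.013). Unc13b, which primes secretory vesicles, differed by 0.83 ± 0.19, and the X-linked nucleolar GTP-binding protein gene Gnl3l by 0.65 ± 0.15. The calls of Unc13b (adjusted p = 0.085) and Gnl3l (adjusted p = 0.078) were lost without the array with the doubtful label, while their differences moved to 0.79 and stayed at 0.65.

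Of the genes that were lower in the testis arm, St3gal6 (Siat10 on the array), which adds terminal sialic acid to glycoproteins, ran from 5.91 through 6.64 to 7.31 against 7.31 through 7.68 to 7.90. Only at the edge did the arms meet. The difference was -0.98 ± 0.21 (adjusted p = 0.013). Qpct, which forms the blocked amino terminus of secreted peptides, was -0.51 ± 0.12 (adjusted p = 0.039), and Nxpe2 (4432416J03Rik on the array) was -0.80 ± 0.19 (adjusted p = 0.037). Nxpe2 was even in the ovary arm, from 7.91 to 8.29, and uneven in the testis arm, from 6.04 to 7.99. Without the doubtful array the adjusted p was 0.15 for Nxpe2 and 0.074 for Qpct.

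The MHC class II genes formed the clearest group. Their products load peptides in antigen-presenting cells and show them to CD4+ T cells, under the transactivator Ciita. All 11 tested probes of 7 genes were lower in the testis arm, 4 of them called, with a median of -0.87 beside 0.004 over all tested probes. These were 2 probes of Cd74 (Ii on the array), the invariant chain that guides class II molecules, and 2 of the 4 probes of H2-Ab1, a beta chain. Cd74 ran from 8.25 through 8.80 to 9.16 in the testis arm and from 8.87 through 9.71 to 10.3 in the ovary arm. The arms overlapped only between the highest testis and the lowest ovary arrays, and on the other Cd74 probe they did not overlap. The differences were -0.91 ± 0.16 (adjusted p = 0.00066) and -0.90 ± 0.16 (adjusted p = 0.0015).

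H2-Ab1 ran from 7.57 through 7.94 to 8.34 in the testis arm and from 8.17 through 8.68 to 9.46 in the ovary arm, a difference of -0.89 ± 0.16 (adjusted p = 0.0021). Its other probes were at -0.97 (called), -0.91 and -0.87. H2-Aa, an alpha chain, was at -0.78 ± 0.21, H2-Eb1 at -0.72 ± 0.21, and the peptide exchange genes H2-DMb1 and H2-DMa at -0.59 and -0.56. None of the last 4 was called. Ctss, the protease that trims the invariant chain, was at -0.13 ± 0.21. The probes of Ciita, H2-DMb2, H2-Oa and H2-Ob did not pass the filter on dim probes. Without the array with the doubtful label 4 of the 11 were called, and the median was -0.85. With slide as a block 8 were called, and with the arrays centred on their medians 0 were called, at a median of -0.76.

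Class II promoters share a Y box, an inverted CCAAT sequence bound by the factor NF-Y. The 150 bases before the start of H2-Aa and H2-Eb1 are shown as examples of class II genes, neither of them called, together with those of Cxcl9, the called chemokine gene. The promoters of Cd74 and H2-Ab1, the called class II genes, were not among the RefSeq promoters used here and were not searched. Capitals mark the letters CTGATTGG, which hold the reverse complement of CCAAT, or the reverse complement of these letters, which holds CCAAT itself. Cxcl9 has the latter form, in which CCAAT is not inverted. The sequences are from RefSeq, build GRCm38.p6: H2-Aa at chr17:34287824-34287973 on the minus strand, H2-Eb1 at chr17:34305717-34305866 on the plus strand and Cxcl9 at chr5:92328080-92328229 on the minus strand.
H2-Aa: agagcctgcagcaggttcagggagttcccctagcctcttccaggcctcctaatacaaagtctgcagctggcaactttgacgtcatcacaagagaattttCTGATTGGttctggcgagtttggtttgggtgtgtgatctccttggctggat
H2-Eb1: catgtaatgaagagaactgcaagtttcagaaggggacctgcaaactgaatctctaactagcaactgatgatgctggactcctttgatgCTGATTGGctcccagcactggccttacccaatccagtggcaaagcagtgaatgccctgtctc
Cxcl9: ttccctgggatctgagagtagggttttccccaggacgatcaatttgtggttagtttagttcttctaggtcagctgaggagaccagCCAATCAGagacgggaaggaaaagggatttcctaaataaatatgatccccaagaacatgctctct
The letters end 43 bases before the start in H2-Aa and 54 bases before it in H2-Eb1, on the gene's own strand, and in Cxcl9 they lie on the opposite strand, 57 bases before the start. Over the 32851 promoters of the table, 3.83% hold these letters on either strand within 250 bases before the start. The match describes the letters and was not tested as a site.

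Over all 11317 tested probes, 5507 were lower in the testis arm and 12 (0.106%) were called lower. Among genes induced by interferon gamma, 31 of 34 tested probes were lower in the testis arm and 2 were called, with a median of -0.17. With the arrays centred on their medians 19 of 34 were lower and 0 were called, and without the doubtful array 29 were lower and 1 was called. Cxcl9, a chemokine that draws activated T cells, ran from 6.81 through 7.48 to 7.83 against 7.52 through 8.36 to 8.94 (-0.93 ± 0.20, adjusted p = 0.015). Gbp2b (Gbp1 on the array), a guanylate-binding protein, was detected on 0 testis and 4 ovary arrays (-0.91 ± 0.22, adjusted p = 0.048), a bound of at least 1.05-fold lower. Without the doubtful array it was not called (adjusted p = 0.085). Cd274, the checkpoint ligand PD-L1, was at -0.54 ± 0.17 (adjusted p = 0.47). The tested probes of Irf1, Irgm1 and Psmb8 lay between -0.10 and 0.02.

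Type I interferon genes had 26 of 34 probes lower and 0 called (median -0.12), but 19 of 34 lower with median centring (median -0.06), and a median of -0.07 without the doubtful array. MHC class I genes had 11 of 12 lower and 0 called (median -0.15), and 9 of 12 lower with median centring (median -0.06). Ly6a, an interferon-induced surface protein also known as Sca-1, ran from 7.52 through 8.60 to 9.38 against 8.36 through 9.49 to 9.87 (-0.85 ± 0.20, adjusted p = 0.035, and 0.14 without the doubtful array, which held its lowest value). Dok2, an adaptor of blood cells, was at -0.74 ± 0.17 (adjusted p = 0.037, and 0.085 without that array) and was detected on 2 and 9 arrays. The T cell surface gene Thy1 was at -0.67 ± 0.14 (adjusted p = 0.013) and was detected on 0 and 2 arrays, so that its size has no usable bound.

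Whole liver was measured, so fewer cells of a type and less RNA per cell cannot be told apart. Among markers of T and natural killer cells, 6 of 18 genes passed the filter and 5 of their 6 probes were lower, with Thy1 called. Over all tested probes 5507 of 11317 were lower. Cd3e, Cd4, Cd8a and Lck were detected on 0 of the 20 arrays. The summed linear signal of the 6 tested probes ran from 282 to 352 in the testis arm and from 291 to 431 in the ovary arm. Among macrophage and dendritic markers 11 of 15 genes passed, 15 of 17 probes were lower and 0 were called (median -0.23), with Itgax, Flt3 and Xcr1 detected on 0 arrays. The summed signal of the 17 tested probes ran from 2536 to 6083 (median 4357) against 3026 to 7878 (median 4680). For MHC class II the sums were 1369 to 2509 (median 2012) against 2367 to 5870 (median 3563). Of B cell markers, Cd79a and Ms4a1 were detected on 0 arrays, and the tested Cd79b and Mzb1 were at -0.25 and 0.31. The part of these cells in the class II and interferon differences was not tested.

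Slides can be weighed directly, because each of the 5 slides that carry testosterone livers holds 1 array of each genotype. Of the 24 called probes, 23 had the same sign on 5 of 5 slides, and Gnl3l on 4 of 5. Scara5 differed by 2.64, 1.15, 3.496, 1.88 and 3.68 on the slides in order. Nat8 differed by 2.20, 2.28, 0.97, 2.29 and 1.11, and Cd74 by -0.51, -0.87, -1.08, -1.35 and -0.75. With slide as a block, limma called 35 probes, 15 higher and 20 lower, and these included the 24. The list medians by slide were negative on 5 of 5 slides for MHC class II, from -0.51 to -1.08, whereas the macrophage and dendritic median ran from -0.69 to 0.10.

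**Figure D2:**
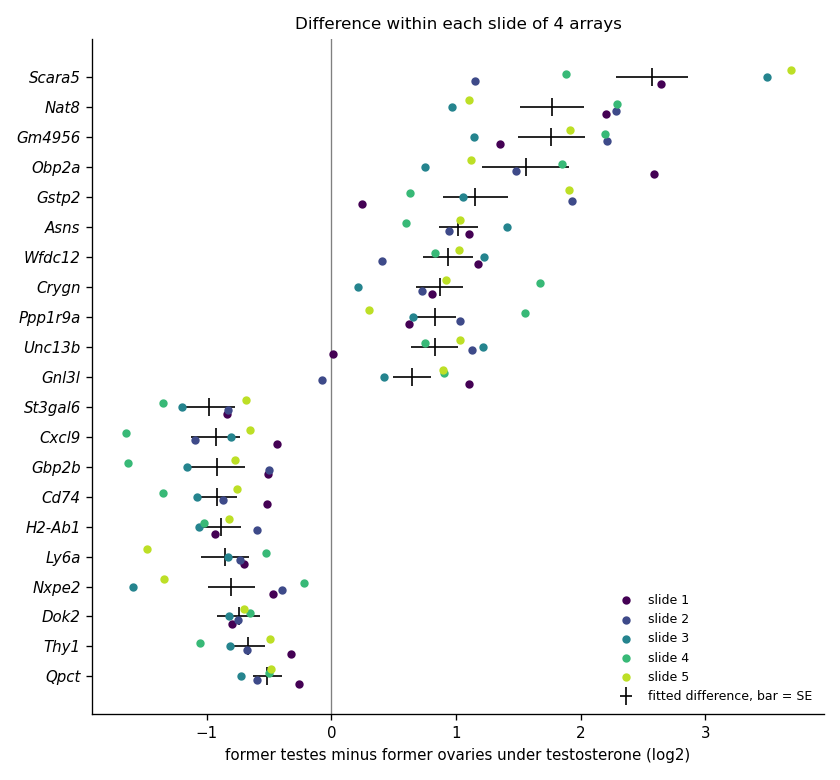
Difference between the arms on each of the 5 slides (coloured points, each from 4 arrays) and over all slides (black tick with its SE), in log2, for the called genes. The points lie on 1 side of 0 for all genes shown except Gnl3l, whose value on slide 2 is -0.07.

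The sex chromosomes were held constant in turn. Between XXSry and XX mice 2 probes were called (0.0177%), Scara5 at 3.07 (adjusted p = 5.2e-06) and Gm4956 at 2.02 (adjusted p = 0.011). Between XY-Sry and XY- mice 6 were called (0.053%), 3 higher (0.0265%) and 3 lower (0.0265%). Among these, Scara5 stood at 2.07, Nat8 at 1.90, Asns at 1.10, Cd74 at -1.12 and -1.19 on its 2 probes and Dok2 at -1.14. Without the array with the doubtful label, which belongs to this comparison, 3 were called, and without XY-Sry T replicate 3, XY- T replicate 1 or XY- T replicate 3 the count was 0.

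The test of whether the gonad difference depends on the sex chromosomes called 0 probes in limma, with 202 at an unadjusted p under 0.05, and 0 with 313 without the doubtful array. For Scara5 that difference was -1.003 and for Dok2 -0.79 (adjusted p = 0.9998 for each). Calls found in only 1 of the chromosome classes are therefore not shown to differ between them. Across the 5 arrays a group, the counts also moved with single arrays: leaving out XXSry T replicate 2, XXSry T replicate 4 or XX T replicate 2 left 1 call in XX mice, leaving out XX T replicate 5 gave 4, and leaving out XX T replicate 4 gave 11 calls in XY mice.

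The gonad difference without hormone was set beside that under testosterone with the 20 blank arrays, none of which enter the testosterone contrast. With blank capsules 201 probes were called (1.78%), 33 higher (0.292%) and 168 lower (1.48%) in the testis arm, of which 50 were 2-fold or more. Called in both treatments with the same sign were 13 probes, which is 54.2% of the testosterone calls and 6.47% of the blank calls. Of the 201 blank calls, 168 (83.6%) kept their sign under testosterone, beside 51.7% of all tested probes, and 58 had an unadjusted p under 0.05 with that sign. Their median size was 0.79 with blank and 0.21 under testosterone, but since they were chosen by their blank difference, a smaller size in other arrays is in part set by that choice. The test of the change itself, testosterone minus blank, called 15 probes of 14 genes (0.133%), 12 higher (0.106%) and 3 lower (0.0265%), and 13 without the doubtful array. Of these 15, 14 were called with blank and 1, Scara5, under testosterone.

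**Figure D3:**
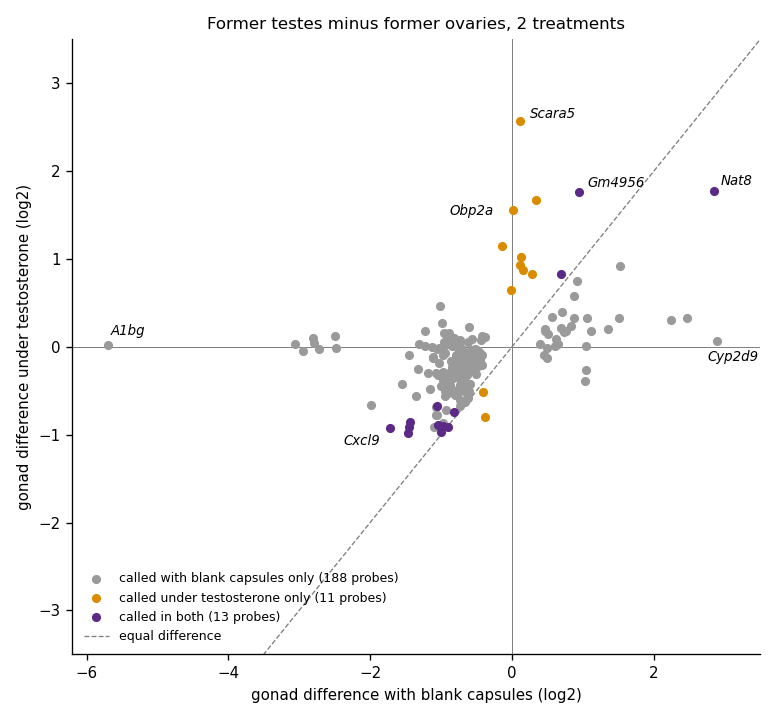
Gonad difference (testis arm minus ovary arm, log2) with blank capsules on the horizontal axis and under testosterone on the vertical axis, for probes called in either. The probes called only with blank capsules spread along the horizontal axis, with A1bg at -5.70 and 0.02, and the 11 called under testosterone and not with blank lie between -0.41 and 0.34 on it.

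The largest blank differences were sex-biased liver genes, and most of them were near 0 under testosterone. A1bg, a plasma glycoprotein gene with female-biased expression in the mouse, ran with blank capsules from 4.86 through 5.91 to 6.58 in the testis arm and from 9.45 through 11.5 to 13.4 in the ovary arm (-5.70 ± 0.48, adjusted p = 7.0e-13). Under testosterone both arms were near background, at medians of 4.71 and 4.69, with 1 array of 10 detecting the probe in each arm, and the difference was 0.02 ± 0.48. The change in the difference was 5.72 ± 0.68 (adjusted p = 1.5e-07). The same shape was seen in Cyp3a41a, a steroid-hydroxylating cytochrome P450, at -2.95 and -0.05, and in the sulfotransferase Sult3a1, at -2.79 and 0.05. With blank capsules these 2 were not well above background in any testis array, and the ovary arm was at least 3.58-fold and at least 3.91-fold higher. Under testosterone neither was detected on any of the 20 arrays, so no level can be compared there. The same holds for Hao2 (Hao3 on the array), an oxidase of the peroxisome, at -1.13 with blank (at least 1.18-fold) and not detected on any testosterone array.

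A promoter is shown for A1bg because the gene had the largest blank difference and is of the kind known to follow growth hormone. Capitals mark TTCNNNGAA, the core letters that STAT factors bind, which read the same on both strands. From RefSeq, build GRCm38.p6, minus strand, chr15:60921271-60921420:
A1bg: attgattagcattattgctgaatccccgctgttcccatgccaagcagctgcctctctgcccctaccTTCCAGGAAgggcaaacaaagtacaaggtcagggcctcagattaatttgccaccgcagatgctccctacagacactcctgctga
The match ends 75 bases before the start, and 7.02% of the 32851 promoters hold these letters within 250 bases before theirs. No binding was measured here.

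Dct and Cyp17a1 were expressed in every testosterone array, so their loss of a difference rests on measured levels. Dct, the dopachrome tautomerase of melanin synthesis, ran with blank from 4.5003 through 5.80 to 7.05 in the testis arm and from 7.11 through 8.49 to 9.71 in the ovary arm (-2.72 ± 0.29). Under testosterone the arms overlapped almost fully, with medians of 7.40 and 7.34 (-0.03 ± 0.29). Between blank and testosterone Dct rose by 1.64 in the testis arm and fell by 1.06 in the ovary arm, both called. Cyp17a1, the steroid 17-hydroxylase and lyase, went from -2.49 ± 0.36 to 0.12 ± 0.36, with a change of 2.61 (adjusted p = 0.0054). Under testosterone its testis arm was uneven. It reached 9.83 on XY-Sry T replicate 5, the array with the doubtful label, and 9.94 on XXSry T replicate 5. The other testis arrays lay between 6.36 and 8.07, and the ovary arm between 6.74 and 8.85. The Cyp17a1 difference without both of these high arrays was not tested.

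Cyp2d9 and Susd4, both higher in the testis arm with blank, had smaller differences at levels well above background. Cyp2d9, a steroid-hydroxylating cytochrome P450, was 2.90 ± 0.43 higher in the testis arm with blank. Under testosterone it ran from 12.0 through 12.9 to 13.3 and from 12.1 through 12.8 to 13.5 (0.06 ± 0.43, change -2.84, adjusted p = 0.015). Susd4 (E430021N18Rik on the array), a complement regulator, went from 2.24 to 0.31 (change -1.93, adjusted p = 0.0054). For Nox4, an NADPH oxidase, the values were 1.504 and 0.33, and the change missed the threshold (adjusted p = 0.35). For the transcript listed as MGC25972 they were 2.47 and 0.33 (adjusted p = 0.56). Cyp4a12, a fatty acid hydroxylase, stood at 1.53 and 0.92 and was called only with blank, and its change was not called (adjusted p = 0.96). Probes of close P450 family members can share signal, which was not tested.

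**Figure D4:**
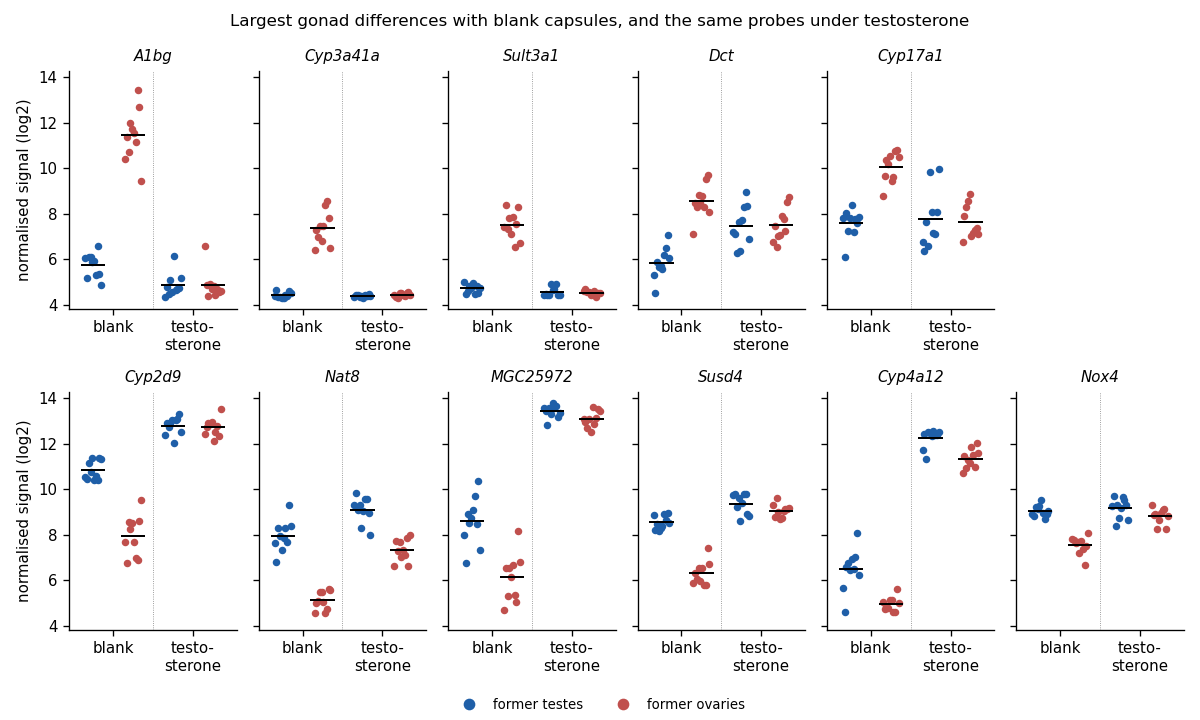
Normalised log2 signal of 11 of the genes with the largest called blank differences, by arm and treatment, with 10 arrays in each column and the mean as a bar. A1bg, Cyp3a41a and Sult3a1 lie near the lower limit in both arms under testosterone, Cyp2d9 lies near 12.8 in both, and Nat8 keeps its arms apart.

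Igfbp2, which binds insulin-like growth factors, differed with blank capsules and was not called under testosterone. It was 1.03 ± 0.19 higher in the testis arm with blank (adjusted p = 0.00024) and stood at -0.39 ± 0.19 under testosterone, not called. The change was -1.42 ± 0.26 (adjusted p = 0.0025). Its other probe was at 1.04 and -0.26.

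Called under all 3 treatments with the same sign were 10 probes, 1 higher (Nat8) and 9 lower. Nat8 was at 2.84 with blank, 1.77 under testosterone and 1.39 under estradiol. In the same order Cxcl9 was at -1.72, -0.93 and -1.35, Gbp2b at -1.46, -0.91 and -1.36, Cd74 at -0.91, -0.91 and -1.29, and H2-Ab1 at -1.04, -0.89 and -1.38. St3gal6 was at -1.46, -0.98 and -0.77, Dok2 at -0.82, -0.74 and -0.84, and Thy1 at -1.05, -0.67 and -1.23. None of these 8 genes was called in testosterone minus blank, with adjusted p from 0.56 to 0.999, which does not show that the differences are equal.

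Seen by list, the immune groups parted. MHC class II medians were -0.97 with blank, -0.87 under testosterone and -1.36 under estradiol, with 10, 4 and 11 of 11 probes called lower. The macrophage and dendritic markers were at -0.83, -0.23 and -0.76, with 12, 0 and 12 of 17 called lower. In testosterone minus blank 0 probes of either list were called, so the lists' different course has no test behind it.

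Called under testosterone alone were 11 probes, 9 higher and 2 lower. Scara5 stood at 0.11 with blank and -0.13 under estradiol beside 2.57 under testosterone, and its change was 2.46 ± 0.41 against blank (adjusted p = 0.00029) and 2.70 ± 0.41 against estradiol (adjusted p = 0.00016). Between blank and testosterone capsules Scara5 rose by 2.67 in the testis arm (adjusted p = 3.2e-10) and moved by 0.20 in the ovary arm (adjusted p = 0.77). Over all tested probes 1040 (9.19%) changed with testosterone in the testis arm and 799 (7.06%) in the ovary arm. These responses share arrays with the gonad contrasts. With blank capsules it was detected on 0 of 20 arrays.

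Asns was at 0.13 with blank and -0.07 under estradiol, on a probe detected on 0 blank arrays of either arm. Under estradiol that probe was detected on 0 testis arrays and 1 ovary array, so these values do not show equal levels. The change of Asns was called against estradiol (1.09, adjusted p = 0.0085) and not against blank (0.89, adjusted p = 0.092). Gm4956, called with blank as well (0.95, adjusted p = 0.049), was at 0.10 under estradiol, and its change against estradiol was 1.67 (adjusted p = 0.040). Its probe was detected on 2 testis arrays and 1 ovary array under estradiol, so the value of 0.10 is near background. Without XY- E replicate 5, the estradiol array of doubtful treatment label, Gm4956 was at 0.34 under estradiol and changed by 1.43 (adjusted p = 0.030), and the change of Asns was 1.07 (adjusted p = 0.0082). Obp2a was at 0.02 and 0.44, Gstp2 at -0.14 and -0.32, and Wfdc12 at 0.12 and 0.11 with blank and under estradiol. The probes of Obp2a and Wfdc12 were detected on 0 blank arrays of either arm, so their blank values do not show equal levels. The estradiol value of Obp2a includes XY- E replicate 2 at 10.9, while the other ovary arrays lay between 4.73 and 6.045. The testis arm of Obp2a ran there from 5.63 through 6.28 to 7.08, with the probe detected on 9 testis and 4 ovary arrays. A smaller difference of Obp2a under estradiol is therefore not shown, and the value without that array was not tested. Against estradiol the change of Gstp2 was 1.47 (adjusted p = 0.077), and 1.49 without XY- E replicate 5 (adjusted p = 0.045). The changes of Obp2a, Gstp2 and Wfdc12 against blank were 1.54, 1.29 and 0.81, none called (adjusted p = 0.47, 0.29 and 0.59). For Ppp1r9a the blank difference of 0.70 was called too (adjusted p = 0.016).

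Under estradiol 279 probes differed between the arms (2.47%), 51 higher (0.451%) and 228 lower (2.01%), and 10 of the testosterone calls were among them with the same sign, 41.7% of the testosterone calls and 3.58% of the estradiol calls. The estradiol array labelled XY- E replicate 5 has a doubtful treatment label: MGC25972 was at 12.5 on it, at 4.36 to 8.28 on the other estradiol arrays and at 12.5 to 13.8 on the testosterone arrays. Without it the estradiol count was 430. Testosterone minus estradiol called 17 probes (0.15%), 17 higher and 0 lower, 15 without the array of doubtful genotype and 59 without XY- E replicate 5, while leaving out XX T replicate 1 or XX T replicate 3 gave 11. Among the most significant were S100a8, a calgranulin of myeloid cells (3.57 ± 0.62, adjusted p = 0.0017), and Lpl, lipoprotein lipase (1.63 ± 0.29, adjusted p = 0.0017). S100a8 was at -3.36 under estradiol and 0.20 under testosterone, and Lpl was at -1.02 and 0.61, neither called under testosterone.

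Of 24 tested probes of female-biased genes, 9 were called lower in the testis arm with blank and 0 under testosterone, and testosterone minus blank was called for 8 of them, all higher. The medians were -0.25 and -0.15. The members with the smallest p under testosterone were Vldlr, a lipoprotein receptor (-0.80, -0.73 and -0.49 on its 3 probes), Cyp2b10 at -0.62 and Abcd2 at -0.67, none called. Of 23 tested probes of male-biased genes, 4 were called higher with blank and 2 under testosterone (Nat8 and Gstp2), with medians of 0.16 and 0.10. Without the array with the doubtful label the testosterone medians were 0.06 for the male-biased and -0.20 for the female-biased list. Cyp7b1, an oxysterol hydroxylase, was at 0.75 ± 0.19 (adjusted p = 0.085) under testosterone, beside called differences of 0.92 with blank and 1.1996 under estradiol. Without the array with the doubtful label it was called (0.85, adjusted p = 0.023), as the third male-biased probe.

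**Figure D5:**
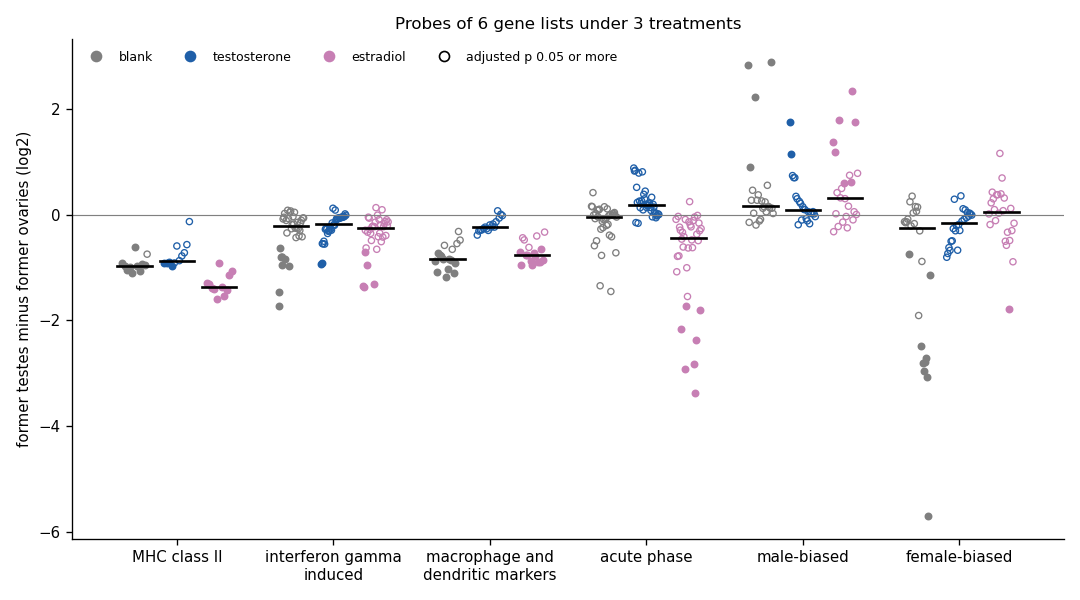
Gonad difference (testis arm minus ovary arm, log2) of each tested probe in 6 gene lists with blank, testosterone and estradiol capsules (filled where adjusted p was under 0.05, bar the median). MHC class II lies below 0 under all 3, macrophage and dendritic markers lie nearer 0 under testosterone (median -0.23) than with blank (-0.83), and the acute phase list is lower under estradiol (-0.43).

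Other groups showed little under testosterone. Growth hormone signalling and regulator genes had 0 of 30 probes called (9 higher, 21 lower, median -0.12), with Nr1i3, the xenobiotic receptor CAR, at -0.51 ± 0.19 (adjusted p = 0.71) and Stat5a at -0.40 ± 0.17. Acute phase genes had 0 of 36 called, 30 of them higher (median 0.20), beside 5810 of 11317 over all tested probes. The slides differed, with list medians of 0.001, -0.18, 0.39, -0.10 and 0.62 in order. With array weights 25 were higher (median 0.08), and without the array with the doubtful label 27 were higher (median 0.14). The acute phase list was led by the metallothionein Mt1 at 0.89 ± 0.26 (adjusted p = 0.29). The same list had 35 of 36 lower under estradiol (median -0.43). Steroid metabolism (0 of 35, median -0.08), lipid synthesis (0 of 28, median -0.05), bile acid (0 of 21, median -0.14) and complement and coagulation genes (0 of 56, median -0.04) had no called probe with all arrays. Without the array with the doubtful label, and with slide as a block, 1 probe was called in the steroid and in the bile acid list. Without that array it was Cyp7b1, which both lists hold. The C6 probes, of the terminal complement pathway, were at 0.71 and 0.71 (adjusted p = 0.45 and 0.65). At these list medians, a scaling by array medians moved the centre of all probes from 0.004 to 0.08, and the lipid and complement medians then turned to 0.04 and 0.06.

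Without the array with the doubtful genotype label, 14 of the 21 genes were still called. Beside the values given above, Gm4956 then stood at 1.67, Obp2a at 1.66, Gstp2 at 1.19, Asns at 0.92, Wfdc12 at 0.90, Crygn at 0.89 and Ppp1r9a at 0.88. St3gal6 stood at -1.01, Cxcl9 at -0.96, Cd74 at -0.97, H2-Ab1 at -0.94 and Thy1 at -0.62.

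The count of 24 was 15 without XXSry T replicate 1, 15 without XY- T replicate 5 and 14 without XX T replicate 4, and 16 or more without any other array. Scara5, Nat8, Gm4956 and Asns were called under every alternative and without any 1 array. St3gal6, Cd74 and H2-Ab1 were called without any 1 array but not under median centring (adjusted p = 0.17, 0.070 and 0.12), and St3gal6 also not without background correction (adjusted p = 0.23). Cxcl9 lost its call without XY-Sry T replicate 4 or XX T replicate 4, Thy1 without XX T replicate 4, Wfdc12 without XXSry T replicate 1 and Ppp1r9a without XY-Sry T replicate 4, at adjusted p of up to 0.057, 0.057, 0.073 and 0.051. These 4 genes also lost their calls under other settings. For Cxcl9 and Thy1 these were median centring and no background correction, and for Thy1 also an offset of 50. For Wfdc12 they were no background correction and an offset of 50, and for Ppp1r9a median centring. The calls of Obp2a, Gstp2, Crygn, Unc13b, Gnl3l, Gbp2b, Ly6a, Nxpe2, Dok2 and Qpct were lost on leaving out at least 4 arrays in turn. Each of these was also lost under other settings. With the testosterone arrays alone 22 probes were called, of which 17 were among the 24. Gstp2, Crygn, Ppp1r9a, Gnl3l, Ly6a, Nxpe2 and Thy1 were not called there.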

How the data were processed

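RNA from liver was hybridised to Illumina expression BeadChips. The deposited table gives, per the file headers, a mean bead intensity and a detection p-value for each probe and array. The lowest deposited intensity was 89.1, and the values were treated as having no log or normalisation between arrays applied. The submitters' processing notes name lumi, with no version, and the role it had in this table is not given in the sources used here. The 60 value columns of the adipose table were not used.

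Intensities were background corrected in limma 3.58.1 (R 4.3.3) by the normexp method, with negative controls inferred from the deposited detection p-values, an offset of 16, quantile normalisation and log2. The offset makes differences of dim probes smaller. Probes with a detection p under 0.01 on at least 5 of the 60 liver arrays were tested, 11317 of 25697. Group means of all 12 liver groups were fitted together, with empirical Bayes moderation and Benjamini-Hochberg adjustment within each contrast, called under 0.05. Arrays have no read depth, and their number limits the precision. The statistics were tested on simulated data.

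Current symbols come from a RefSeq table (GRCm38.p6) that matched 10982 of the 11317 probes (97%), and sequences come from RefSeq as well. The build behind the probes is not given in the sources used here. Where a gene had several probes, the probe with the smallest p stands for it and the others are given where they differ. Named genes were the called differences under testosterone with the same sign in XX and XY mice (up to 12 a direction), the 6 largest a direction with blank capsules, the 8 called changes against blank and 3 against estradiol with the smallest adjusted p, and members of the gene lists. Some results are not reported here. The members, lists and rule were chosen with earlier results of these data known. Alternatives were another normalisation, background correction, offset and filter, slide as a block, array weights, the testosterone arrays alone and each testosterone array left out.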

Additional observations from a re-analysis of the deposited data

Results flagged for a closer look

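Within the 42 arms examined, an array far from its group's others was found in Gstp2: XY- T replicate 1 was at 9.85 in the ovary arm, whose other arrays lay between 6.60 and 8.06. Dixon's critical value, the limit used, is by its definition passed by chance in about 1 of 20 groups.

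The gonad difference itself differed between testosterone and blank capsules by limma's test of that change. The changes, testosterone minus blank, were 5.72 for A1bg, 2.83 for Sult3a1, 2.90 for Cyp3a41a (Cyp3a41 on the array), 2.69 for Dct, 2.46 for Scara5, 1.13 for Hao2 (Hao3 on the array) and -1.42 for Igfbp2, with limma's adjusted p from 1.5e-07 to 0.0025. In A1bg, Sult3a1, Cyp3a41a and Hao2 both arms were near or below background under testosterone. In Scara5 the blank arms were below background.

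Between testosterone and estradiol the gonad difference changed by 2.70 for Scara5, 3.57 for S100a8 and 1.63 for Lpl, with limma's adjusted p of 0.00016, 0.0017 and 0.0017. Without the estradiol array of doubtful treatment label the change of S100a8 was 3.98.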

How the results depend on the processing

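Counts of calls moved with the processing, and the cause was not tested. Under testosterone the count of 24 was 9 with median centring, 14 without background correction, 39 with slide as a random block and 37 with array weights. It was 17 to 35 under the other settings. In XX mice the count of 2 was 4 without background correction, 5 with the random block and 6 with weights. In XY mice the count of 6 was 0 with median centring, 10 with slide as a fixed block, 14 with the random block and 21 with weights. With blank capsules 201 became 320, 338 and 371 under these 3, and under estradiol 279 became 140 with median centring, 451 with the fixed and 477 with the random block. Testosterone minus blank, 15 calls, gave 6 with the filter set on testosterone arrays (fewer probes tested), 24 and 25 with the fixed and random blocks and 26 with weights. Testosterone minus estradiol, 17 calls, gave 10 with median centring, 7 without background correction, 10 without a filter, 5 with the testosterone filter, and 52 and 59 with the blocks.

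Leaving out single arrays gave 14 to 26 calls under testosterone, 1 to 4 in XX mice, 0 to 11 in XY mice, 0 to 0 for the dependence on sex chromosomes, 13 to 19 for testosterone minus blank and 11 to 59 for testosterone minus estradiol. Without XY- E replicate 5 there were 226 blank and 430 estradiol calls. Median centring moved the median of all probes to 0.08 under testosterone, 0.18 in XX mice and 0.12 for testosterone minus blank.

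Of 383 values of the named differences under the other settings, 328 kept their call, 55 lost it and 0 changed sign, and of 684 values with an array left out, 563 kept it, 121 lost it and 0 changed sign. The labels give no replicate numbers, so arrays were paired only by slide, as a block. The signal over background limits what can be said of Scara5, Wfdc12, Gbp2b and Thy1, and of 1 of the 2 Asns probes, which were not well above background on any array of 1 arm.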

Other observations

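For genes on the X that have a counterpart on the Y, 4 of 4 tested probes were higher in the testis arm and 0 were called. Over all tested probes 5810 of 11317 were higher. Ddx3x, an RNA helicase gene, was at 0.44 (limma, adjusted p = 0.19), and the histone demethylase gene Kdm6a was at 0.26 and 0.17. The neutrophil markers, 5 tested probes, had a median of 0.01 under testosterone and of -1.33 under estradiol, where all 5 were called lower in the testis arm. Under testosterone their summed linear signal was low, from 33 to 124 in the testis arm and from 32 to 63 in the ovary arm. The median of 0.01 therefore does not show equal levels. The filter on dim probes counted liver arrays of every treatment, so high estradiol arrays could themselves bring a probe into the test. How far this shaped the 5 estradiol calls was not tested.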
